A study of Mus musculus with 3 samples.

Results

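The endothelial cells of the mouse ovary, the cells that line its blood and lymph vessels, were followed over 3 ages in single-cell RNA counts. They were chosen by their own counts, as CP10K, which is 10000 times the unique molecular identifiers (UMIs, each a captured mRNA molecule) of a gene divided by the cell's total. A cell was taken when it had 200 or more detected genes and its UMIs of Cldn5, Cdh5, Ecscr, Esam and Cd93 summed to 5 CP10K or more. Its globins also had to stay under 10% of UMIs and Inha plus Amh, 2 granulosa genes, under 5 CP10K. The rule found 68 of 1548 cells. There were 17 of 456 at embryonic day 16.5 (3.73%, exact binomial 95% interval 2.19 to 5.90), 22 of 509 at postnatal day 7 (4.32%, 2.73 to 6.47) and 29 of 583 at postnatal day 14 (4.97%, 3.36 to 7.07). Without cells whose globins made up 10% of UMIs or more (139, 13 and 9 cells), the shares were 5.36%, 4.44% and 5.05%.

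All libraries came from ovaries of wild-type C57BL/6 females with no other treatment, and the groups differ in age alone: embryonic day 16.5 (its title says ED17), PND 7 and PND 14. Ovaries were cut up, digested with collagenase type I and deoxyribonuclease I, strained at 40 μm and run as droplets on a Chromium instrument, whose 3′ kit (v2) counts mRNA near its polyadenylated end. The number of ovaries or animals behind a library is not given in the sources used here. Each age is 1 library, so differences between ages could not be checked in replicates, and they were not tested. Intervals below are exact 95% intervals of counting error only, and p-values were not computed. The libraries held 8994085, 8743797 and 9065595 UMIs, shared 0 barcodes and were run on 1 sequencing lane. The endothelial cells summed to 403125, 522055 and 689685 UMIs, for which 3 UMIs, the limit that a count of 0 allows, equal 7.44, 5.75 and 4.35 CPM (counts per 1000000 UMIs of those cells). Their median depth was 12322, 22978 and 20983 UMIs against 15091, 12116 and 11268.5 in the other cells, and their median mitochondrial share was 1.35%, 1.00% and 0.985%.

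Endothelial cells form a tight sheet held together by claudin and cadherin junctions, and vascular endothelial growth factor (VEGF) and angiopoietins reach them through the receptors of the KDR, FLT and TIE families. Arterial cells are set apart by Notch signalling and connexins, venous cells by the transcription factor NR2F2, and lymphatic cells by PROX1. In the ovary the vessel bed is laid down before birth and is later remodelled around growing follicles.

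The values that chose the cells are given as a description. The 5 markers summed to a median of 27.8 CP10K at embryonic day 16.5, 32.1 at day 7 and 27.3 at day 14, with 0 as the median of the other cells at each age. All 5 markers had a UMI in 14 of 17, 21 of 22 and 22 of 29 cells. Just inside the threshold stood a day 7 cell at 5.00 CP10K, and just outside it day 14 cells at 4.66 and 4.44 CP10K. The next lowest cells inside were at 7.98 and 8.05 CP10K (day 14) and 11.2 CP10K (embryonic), and the highest below the threshold elsewhere were 3.66 (embryonic) and 3.40 CP10K (day 7). The limit on globins removed 2 embryonic cells, and the limit on Inha and Amh removed 5 cells of day 14. A wider list of 26 endothelial genes that the rule did not name, such as Pecam1, Kdr and Tie1, summed to medians of 61.0, 66.2 and 65.3 CP10K per cell against medians of at most 4.0 CP10K in the other cells. All 26 genes were more than 2-fold above the other cells at every age, so the label holds for the cells as a group. The cell nearest the threshold at day 7 had 8 Cdh5 UMIs and none of the other markers, with 11.9 CP10K of the wider list and 65.0 CP10K of stroma genes. A day 14 cell that entered on 5 Esam UMIs alone held 4.79 CP10K of the wider list and 123 CP10K of surface epithelium genes.

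**Figure D1:**
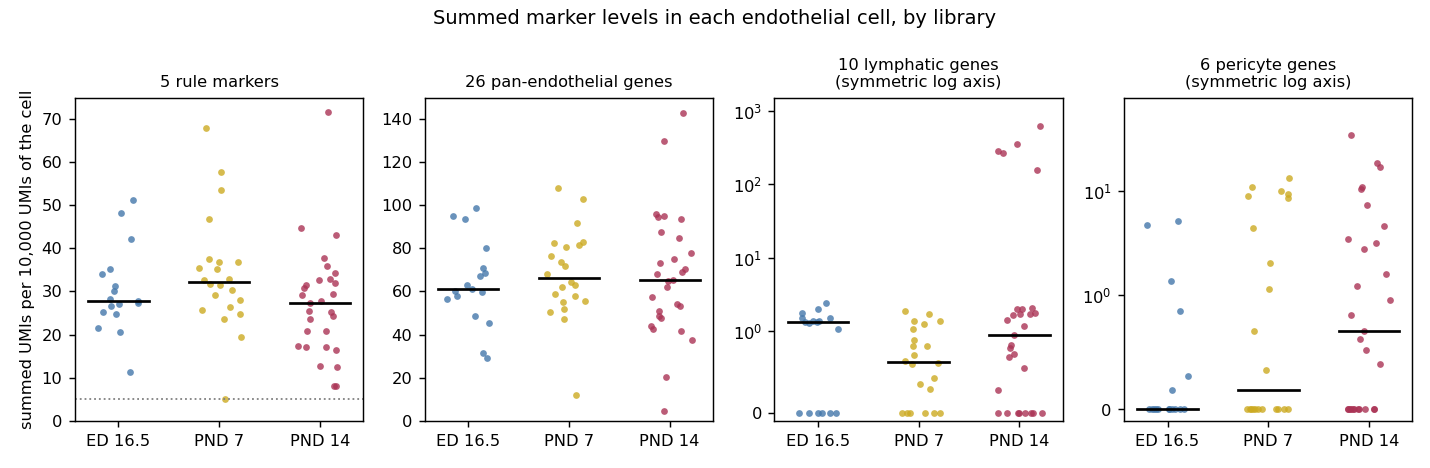
Summed CP10K of 4 gene lists in each endothelial cell (1 point a cell; black line, median; dotted line, the rule's threshold of 5 CP10K) by library. The wider endothelial list has medians of 61.0, 66.2 and 65.3 CP10K, the lymphatic list separates 5 cells of PND 14 (157 CP10K and over), and the pericyte list reaches 35.0 CP10K at PND 14.

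Against the other cells of the same library, 984 of 15289 genes at embryonic day 16.5 were 2-fold or more higher on the log2(CPM + 10) scale (6.44% of those tested), 843 of 15606 at day 7 (5.4%) and 907 of 15122 at day 14 (6%). These cells were selected on 5 such genes, so these counts describe the selected cells and are no test. The median log2 ratio over all genes tested was -0.09, -0.17 and -0.04, a shift to be read beside each day 7 ratio. The 20 genes with the highest lowest ratio over the 3 libraries, beyond the rule's own, were led by Ctla2a, Pecam1, Aplnr, Flt1, Plxnd1, Gimap6 and Emcn. Ctla2a, which encodes a cysteine protease inhibitor, stood at 303, 575 and 563 CPM against 3.15, 2.44 and 8.85 in the other cells. Pecam1, the adhesion molecule of endothelial contacts, stood at 449, 372 and 284 CPM against 9.69, 2.07 and 7.05. The semaphorin receptor gene Plxnd1 was at 357, 316 and 331 CPM, against at most 11.2 CPM outside the endothelial cells. Emcn, a sialomucin of capillaries and veins, was at 382, 444 and 410 CPM, and the secreted factor Egfl7 at 588, 672 and 737 CPM. The prostaglandin transporter Slco2a1 (179, 193 and 197 CPM), the lipoprotein lipase anchor Gpihbp1 (278, 278 and 135 CPM) and the TGF-β co-receptor Eng (384, 510 and 603 CPM) were also among the 20. Ctla2a, the Gimap genes and Ly6c1 have close relatives whose reads the counting could have split, so their levels are uncertain. Cdh5 (chr8:104101625-104144511 of GRCm38) overlaps an antisense gene, and use of strand in the counting is not given in the sources used here. Whether reads of the pair were told apart is thus not known. Cldn5 (chr16:18776847-18778262) and Pecam1 (chr11:106654217-106750628) overlap no other annotated gene.

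Promoters of the leading genes are shown because ETS factors are known regulators of endothelial genes. The motifs CAGGAAG and CCGGAAG, bound by ETS factors, were searched on both strands in the 250 bases before and 50 bases after each start (RefSeq promoters, GRCm38.p6). Capitals mark a match, and the reverse complement of CAGGAAG reads CTTCCTG.
Emcn (chr3:137340828-137341127, + strand): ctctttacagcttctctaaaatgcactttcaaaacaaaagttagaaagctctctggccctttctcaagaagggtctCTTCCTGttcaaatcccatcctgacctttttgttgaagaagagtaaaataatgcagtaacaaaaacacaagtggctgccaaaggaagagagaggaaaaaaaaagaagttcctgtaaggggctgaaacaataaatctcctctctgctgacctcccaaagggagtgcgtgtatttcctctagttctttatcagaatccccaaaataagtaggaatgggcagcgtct
Egfl7 (chr2:26580833-26581132, + strand): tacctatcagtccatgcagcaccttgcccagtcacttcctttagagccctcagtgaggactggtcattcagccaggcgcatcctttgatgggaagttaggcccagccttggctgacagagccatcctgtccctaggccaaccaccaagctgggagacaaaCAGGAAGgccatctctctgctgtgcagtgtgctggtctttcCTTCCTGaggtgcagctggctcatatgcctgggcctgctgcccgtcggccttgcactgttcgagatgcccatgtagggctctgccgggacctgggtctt
Madcam1 (chr10:79664309-79664608, + strand): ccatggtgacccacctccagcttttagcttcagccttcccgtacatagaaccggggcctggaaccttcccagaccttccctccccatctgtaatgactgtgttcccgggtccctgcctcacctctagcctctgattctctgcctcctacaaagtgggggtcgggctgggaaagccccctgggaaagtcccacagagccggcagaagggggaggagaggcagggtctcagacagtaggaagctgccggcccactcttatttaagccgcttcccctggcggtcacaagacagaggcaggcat
The Emcn window has 1 match. The table holds 3 Egfl7 windows, with 2, 1 and 0 matches, and the one with 2 is printed. The Madcam1 window, shown because the gene's RNA was hardly found after birth, has 0. Of the 25 leading and rule genes, 16 had a promoter in the table and 3 (18.8%) held a match (Ctla2a, Emcn and Egfl7), against 23.1% of all 27025 genes. A match is only a run of letters in this window, and the share among the leading genes is no higher than among all genes.

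Between embryonic day 16.5 and day 7, 452 of 8368 genes tested (10 or more UMIs over both ages) were 2-fold or more higher in endothelial cells (5.4%) and 158 were 2-fold or more lower (1.89%). From day 7 to day 14, 260 of 9577 genes were higher (2.71%) and 83 lower (0.867%). From embryonic day 16.5 to day 14, 682 of 9141 genes were higher (7.46%) and 175 lower (1.91%). List counts between ages given below are to be read beside these shares of all genes tested. The median log2 ratio over all genes tested was 0.04, 0.03 and 0.07 in these comparisons. A group of 5 day 14 cells rich in lymphatic genes, described below, moves many day 14 levels, so the counts and some of the levels are also given without them. Without them, of 9144 genes tested, 234 were higher and 97 lower from day 7 to day 14. Against embryonic day 16.5 the counts without them were 697 and 222 of 8654 genes tested.

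Of the 12 named genes lower at day 7 than in the embryonic cells, H19, Madcam1, Mest and Plagl1 had the lowest log2 ratios. Madcam1, at chr10:79664559-79668537, encodes the vascular adhesion molecule that binds integrin α4β7 on lymphocytes. It had 126 UMIs in 8 of 17 embryonic cells, 5 UMIs in 2 of 22 cells at day 7 and 0 in 29 cells at day 14. In CPM these are 313 (260 to 372), 9.58 (3.11 to 22.4) and 0, so day 7 was 32.6-fold lower (13.6 to 102). Day 14 was 71.9-fold lower against the limit of 3 UMIs, and at least 57.6-fold lower by the exact interval. The 3 embryonic cells with most Madcam1 held 40, 38 and 34 UMIs, and 4 of 130 Madcam1 UMIs in that library lay outside the endothelial cells. Madcam1 RNA was thus found in part of the embryonic endothelial cells and in 4 of 439 other cells, at 1 UMI each. The arterial-rich cell described below was the one with 40 UMIs.

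Imprinted growth genes, those expressed from the copy of a single parent and known for acting on fetal growth, were in part lower after birth. At day 7, 6 of 13 tested members were 2-fold lower and 0 higher (median log2 ratio -0.97), and at day 14 against the embryonic day 6 of 12 were lower and 0 higher (median -1.39), or 7 of 12 without the lymphatic-rich cells. H19, a long noncoding RNA from chr7:142575529-142578143, had 409 UMIs in all 17 embryonic cells (1015 CPM, 919 to 1117), 23 UMIs in 8 cells at day 7 (44.1 CPM) and 191 UMIs at day 14 (277 CPM). All 191 of those UMIs were in the 5 lymphatic-rich cells, and the other 24 cells had 0. Mest, a hydrolase gene at chr6:30723547-30748465 that overlaps Copg2 on the other strand, stood at 2161 CPM, 349 CPM and 149 CPM, or 38.1 CPM at day 14 without the lymphatic-rich cells. Day 7 was 6.20-fold lower (5.28 to 7.31) than the embryonic day. The other cells showed 227, 60.8 and 26.4 CPM of Mest, so the embryonic endothelial level was the higher one.

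Plagl1, a zinc finger transcription factor of the same group, was at 196, 30.6 and 13.0 CPM, whereas the other cells had 38.2, 120 and 56.0 CPM. The CDK inhibitor Cdkn1c was at 357, 115 and 56.5 CPM, close to the other cells at 390, 97.0 and 39.5 CPM. Peg10, a retrotransposon-derived gene, was at 84.3, 38.3 and 14.5 CPM. Igf2, the fetal growth factor next to H19, had 14, 2 and 0 UMIs (34.7, 3.83 and 0 CPM). Ndn, which encodes necdin, differed from the group, at 86.8, 172 and 125 CPM.

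Other named genes with higher embryonic levels were Tmem255a (196, 55.5 and 26.1 CPM) and Tcf15 (169, 53.6 and 21.7 CPM). Tcf15 encodes a helix-loop-helix factor known from endothelial cells of heart and muscle. The fatty acid carrier Fabp5 stood at 161, 26.8 and 29.0 CPM. Its relative Fabp4 had 25 UMIs in 6 embryonic cells and 0 at both later ages. Against the limit of 3 UMIs, day 7 was 10.8-fold lower, a ratio that leaves out the counting error of the 25 UMIs. Cd36, the fatty acid translocase, stood at 107, 11.5 and 1.45 CPM. Plvap, which forms the diaphragms of capillary openings, was at 347, 157 and 146 CPM, and the adhesion gene Icam2 at 377, 174 and 187 CPM. Of 11 tested genes of capillary identity and transport, 5 were 2-fold lower at day 7 (Fabp4, Cd36, Fabp5, Aqp1 and Plvap), and 2 were higher (Ly6c1 and Ly6a). The median over these genes was -0.29.

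Class I antigen presentation and interferon-induced genes were higher after birth. At day 7, 10 of 16 tested members were 2-fold higher and 0 lower (median log2 ratio 1.32). At day 14 against the embryonic day, 8 of 15 were higher and 0 lower (median 1.09), or 8 of 14 without the lymphatic-rich cells. Ly6e, a membrane-anchored protein gene at chr15:74955051-74959905, had an embryonic level of 189 CPM (149 to 236), then 835 CPM (759 to 917) at day 7 and 1024 CPM (950 to 1102) at day 14, with 63.1, 99.0 and 138 CPM in the other cells. The day 7 level was 4.43-fold higher (3.47 to 5.73) than the embryonic one. Ly6c1, a marker of arterial and capillary endothelium in mice, was at 131, 362 and 470 CPM, and Ly6a, known as Sca-1, at 32.2, 93.9 and 115 CPM. The class I heavy chain genes H2-D1 (96.7, 295 and 254 CPM) and H2-K1 (19.8, 115 and 84.1 CPM) were also higher at both postnatal ages. In the other cells H2-D1 was at 66.2, 103 and 51.5 CPM and H2-K1 at 64.9, 110 and 40.1 CPM, so the day 14 levels there were below the embryonic ones. Psmb8, an immunoproteasome subunit, stood at 14.9, 57.5 and 52.2 CPM. Ifitm3, an interferon-induced membrane protein, was at 370, 916 and 797 CPM. The Ly6, Ifitm and H2 families hold near-identical copies, so the split among their members is uncertain.

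The chemokine genes Cxcl10 and Cxcl1 and the regulator Irf1 were among the 12 named genes higher at day 7, and each was lower again at day 14. The T cell attractant Cxcl10 had 0 embryonic UMIs and was at 80.5 CPM (day 7) and 31.9 CPM (day 14). Day 7 was 10.8-fold above the embryonic limit of 3 UMIs, and at least 8.41-fold higher by the exact interval. Without the lymphatic-rich cells Cxcl10 was at 39.9 CPM at day 14, with a log2 ratio to day 7 of -0.86, so no longer 2-fold lower on the log2(CPM + 10) scale. Cxcl1, a neutrophil attractant, was at 4.96, 99.6 and 50.7 CPM, and the interferon regulatory factor Irf1 at 7.44, 103 and 47.8 CPM. Of the leukocyte adhesion list, Icam1 (54.6, 136 and 62.3 CPM) and the selectin gene Sele (0, 28.7 and 10.1 CPM) were 2-fold higher at day 7. Madcam1 and Icam2 were 2-fold lower, out of 9 tested. Genes that dissociation is known to induce were higher beside these. At day 7, 10 of 15 were 2-fold higher and 0 lower, and the heat shock gene Hspa1a went from 0 to 226 and 194 CPM. In the other cells Hspa1a went from 4.44 to 305 and 410 CPM. The part of dissociation in the chemokine levels was not tested.

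**Figure D2:**
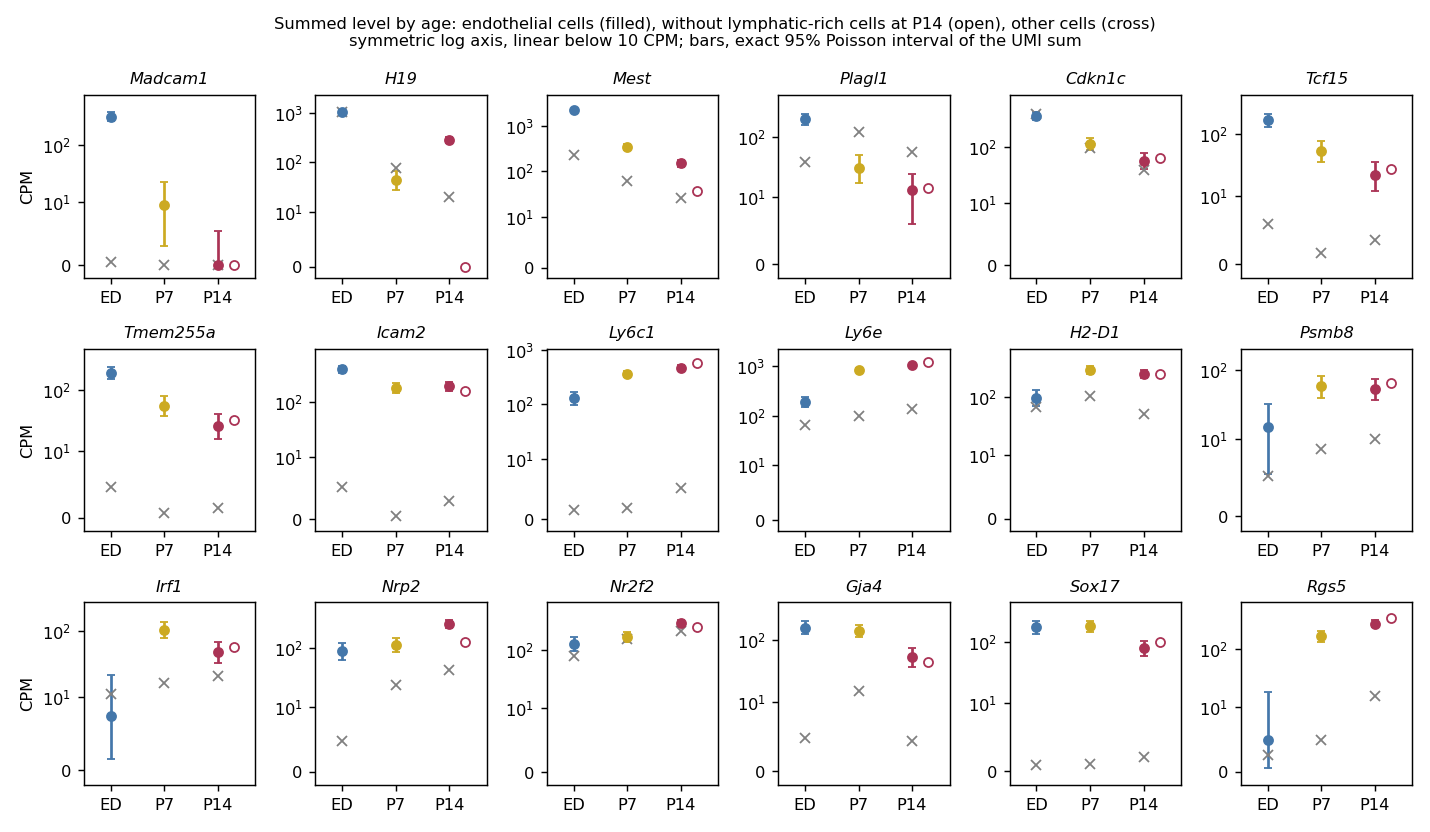
Summed level (CPM, symmetric log axis) of 18 genes by age in endothelial cells (filled circles with exact 95% Poisson intervals), in the 24 PND 14 cells without the lymphatic-rich ones (open circles) and in the other cells (crosses). H19 is at 277 CPM at PND 14 with the lymphatic-rich cells and at 0 without them, and Madcam1 goes from 313 CPM to 0.

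Fewer genes set day 14 apart from day 7. Of the 12 named higher genes, which have 30 or more UMIs and no more than 50% of them in 1 cell, 8 were no longer 2-fold higher without the lymphatic-rich cells (among them Mmrn1, Lyve1, Ptx3, Thy1, Reln, Prox1 and H19). The fibrinogen-like gene Fgl2 was among the other 4, at 0, 1.92 and 85.5 CPM, and at 21.7 CPM without those cells. The smooth muscle gene Tagln was at 4.96, 9.58 and 110 CPM, with 40.8% of its day 14 UMIs in 1 cell and 271 CPM in the other cells of day 14. On the lower side stood Igfbp3, which binds insulin-like growth factors, at 218, 161 and 58.0 CPM. In the embryonic library 48.9% of its UMIs came from 1 cell. The GTPase-activating protein gene Arhgap18 was at 124, 117 and 40.6 CPM, the homeobox gene Hlx at 74.4, 59.4 and 20.3 CPM, and the stress gene Gadd45g at 17.4, 140 and 45.0 CPM. Igfbp3, Arhgap18 and Hlx thus differed less between the embryonic day and day 7 than between day 7 and day 14.

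The receptors of VEGF and angiopoietin differed little between ages. Of 8 tested, 0 were 2-fold apart between the embryonic day and day 7 (median log2 ratio 0.22). At day 14 against the embryonic day 3 were higher, namely Nrp2, Flt4 and Ptprb, and without the lymphatic-rich cells only Ptprb. Kdr, the main VEGF receptor, was at 360, 339 and 394 CPM, with intervals that overlap. Flt1, which binds VEGF as a decoy, was at 241, 331 and 300 CPM. The angiopoietin receptor Tek was at 104, 121 and 126 CPM and its partner Tie1 at 221, 178 and 191 CPM. The phosphatase Ptprb, which acts on Tek, was at 91.8, 142 and 204 CPM, 2.23-fold higher (1.54 to 3.29) at day 14 than at the embryonic day. Among ligands made by the endothelial cells, Apln stood at 14.9, 49.8 and 20.3 CPM. Angpt2, a ligand of Tek that can oppose its signalling, had 0, 5 and 44 UMIs, and 38 of those 44 were in the lymphatic-rich cells.

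Of 11 tested Notch genes, 2 were 2-fold higher at day 7 (Heyl and Hes1) and 2 lower (Hey1 and Notch4), against 5.4% and 1.89% of all genes tested. At day 14 against the embryonic day 0 were higher and 3 lower (Hey1, Lfng and Nrarp), against 7.46% and 1.91%. Notch1 was at 96.7, 99.6 and 103 CPM and its ligand Dll4 at 34.7, 38.3 and 29.0 CPM, with overlapping intervals. The target gene Hes1 was at 243, 502 and 351 CPM. Of 22 endothelial transcription factors tested, Meox1 and Epas1 were 2-fold higher at day 7 and 0 lower. Erg (69.5, 86.2 and 71.0 CPM) and Fli1 (114, 159 and 136 CPM), ETS factors of endothelial identity, had overlapping intervals. The hypoxia-inducible factor Epas1 was at 129, 276 and 265 CPM, and the homeobox gene Meox1 at 34.7, 93.9 and 109 CPM. Without the lymphatic-rich cells Meox1 was at 54.4 CPM at day 14, so that part of its level there was carried by them. That value lies between the embryonic level of 34.7 CPM and the day 7 level of 93.9 CPM.

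Estrogen receptor RNA was scarce in these cells. Esr1 had 0, 1 and 4 UMIs and Esr2 0, 1 and 5 UMIs, all at or under 7.25 CPM. The glucocorticoid receptor Nr3c1 was at 24.8, 55.6 and 94.2 CPM against 30.8, 41.8 and 35.4 CPM in the other cells.

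Some arterial genes were concentrated in few cells and others were spread out. At embryonic day 16.5, 1 of 17 cells held 58 of 65 Gja4 UMIs, and all 6 Gja5 UMIs. Gja4 (chr4:127311421-127314039) and Gja5 encode connexins of arterial gap junctions. The same cell held 29 of 45 UMIs of the guidance receptor Unc5b, 8 of 10 of the chemokine receptor Cxcr4 and 17 of 18 of its ligand Cxcl12, and no UMI of the venous and capillary receptor Aplnr. It held 10 of 70 UMIs of Sox17, an arterial transcription factor with a UMI in 14 of 17 cells. Its 15 arterial genes summed to 34.5 CP10K, against at most 13.8 CP10K in the other embryonic cells. At day 7 there were 2 such cells, at 35.8 and 34.1 CP10K, with the next at 18.6 CP10K. They held 17 and 42 of 75 Gja4 UMIs, 13 and 14 of 94 Sox17 UMIs, and 82 and 11 of 112 Cxcl12 UMIs. The cell at 34.1 CP10K also held 13.3 CP10K of pericyte genes, the highest among the day 7 endothelial cells, and 1 Aplnr UMI. The cell at 18.6 CP10K held 41.0 CP10K of stroma genes. At day 14 the highest sum was 11.7 CP10K, so that none of the 29 cells stood apart by this sum. The limit that 0 of 29 allows is 10.3% of cells. The second-highest day 14 cell, also at 11.7 CP10K, held 11 UMIs of Gja4, 9 of Sox17, 29 of Cxcl12 and 0 of Aplnr. It also held 34.4 CP10K of stroma genes and 18.6 CP10K of pericyte genes.

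Summed over cells, Gja4 was at 161 CPM (124 to 206) in the embryonic cells, 144 CPM (113 to 180) at day 7 and 53.6 CPM (37.8 to 73.9) at day 14, and Sox17 at 174, 180 and 78.3 CPM. Sox17 at day 14 was 2.3-fold lower (1.63 to 3.28) than at day 7, or 1.84-fold (1.30 to 2.62) without the lymphatic-rich cells. Since 1 and 2 cells carried most Gja4 at the earlier ages, its difference rests on those cells. Of 11 arterial genes tested at day 14 against the embryonic day, 4 were 2-fold lower (Gja4, Sox17, Hey1 and Cxcr4). The elastic fibre gene Fbln5, at 12.4, 51.7 and 125 CPM, was higher, and its level in the other cells was 20.7, 75.5 and 47.3 CPM. The arterial median log2 ratio was -0.59, or -0.36 without the lymphatic-rich cells.

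Several venous genes stood higher at day 14. At day 14 against the embryonic day 4 of 7 tested genes were 2-fold higher (Lrg1, Vwf, Nrp2 and Nr2f2), Aplnr was lower and the median log2 ratio was 1.12. Without the lymphatic-rich cells 2 were higher (Lrg1 and Vwf), 0 lower and the median was 0.83. Nr2f2, the venous transcription factor at chr7:70351944-70366735, was at 129 CPM (96.3 to 169) in the embryonic cells, 170 CPM (137 to 210) at day 7 and 293 CPM (254 to 336) at day 14, or at 250 CPM there without the lymphatic-rich cells. Nr2f2 is also a stromal gene, and the other cells stood at 79.7, 154 and 216 CPM. Vwf, the clotting protein stored in endothelial granules, was at 17.4, 32.6 and 68.1 CPM, with 17 of its 47 day 14 UMIs in 1 cell. Nrp2, a receptor of veins and lymphatics, was at 89.3, 113 and 260 CPM, but at 127 CPM without the lymphatic-rich cells. The apelin receptor Aplnr was at 504, 439 and 231 CPM, or 288 CPM without them.

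Arterial and venous genes were looked for in the same cells, the arterial-rich ones included. To compare cells of unequal depth, each was thinned at random to 5000 UMIs, with 0 cells left out. Sox17 then had a UMI in 8 of 17, 10 of 22 and 10 of 29 cells, and Nr2f2 in 8, 13 and 19 cells. Both were found together in 4 of 17 (23.5%, 6.81 to 49.9), 5 of 22 (22.7%, 7.82 to 45.4) and 6 of 29 cells (20.7%, 7.99 to 39.7). The product of the 2 shares gives 3.76, 5.91 and 6.55 cells, close to these counts. Unthinned, 10, 15 and 14 cells held both. The arterial ephrin ligand gene Efnb2 and its venous receptor gene Ephb4 were together in 2 of 17, 2 of 22 and 1 of 29 thinned cells, against 2.06, 0.727 and 1.93 by the product. Unthinned these were 5, 8 and 9 cells. Across unthinned cells Spearman's rho between arterial and venous sums was -0.03 over 17 cells, -0.16 over 22 and 0.25 over 29, sums that share each cell's depth.

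Free RNA gives a level to set these shares against. In erythroid cells, which should lack these genes, unthinned Sox17 had a UMI in 2 of 139 (median 15560 UMIs), 0 of 13 (10227 UMIs) and 0 of 9 cells (16550 UMIs). Nr2f2 had a UMI in 8 of 139, 0 of 13 and 1 of 9 of them. Thinned to 5000 UMIs, Sox17 was in 0 of 139 and Nr2f2 in 4 of 139 embryonic erythroid cells. Efnb2 and Ephb4 were each in 2 of 139 unthinned embryonic erythroid cells and in 0 thinned ones. The embryonic endothelial shares lie above these, and the 13 and 9 postnatal erythroid cells are too few to set a level. Nr2f2 was also common outside the endothelial cells. Thinned, it was in 31.3%, 51.3% and 59.3% of the other non-erythroid cells, against 47.1%, 59.1% and 65.5% of the endothelial cells. Thinned Sox17 was in 0%, 0.633% and 0.734% of the other non-erythroid cells.

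**Figure D3:**
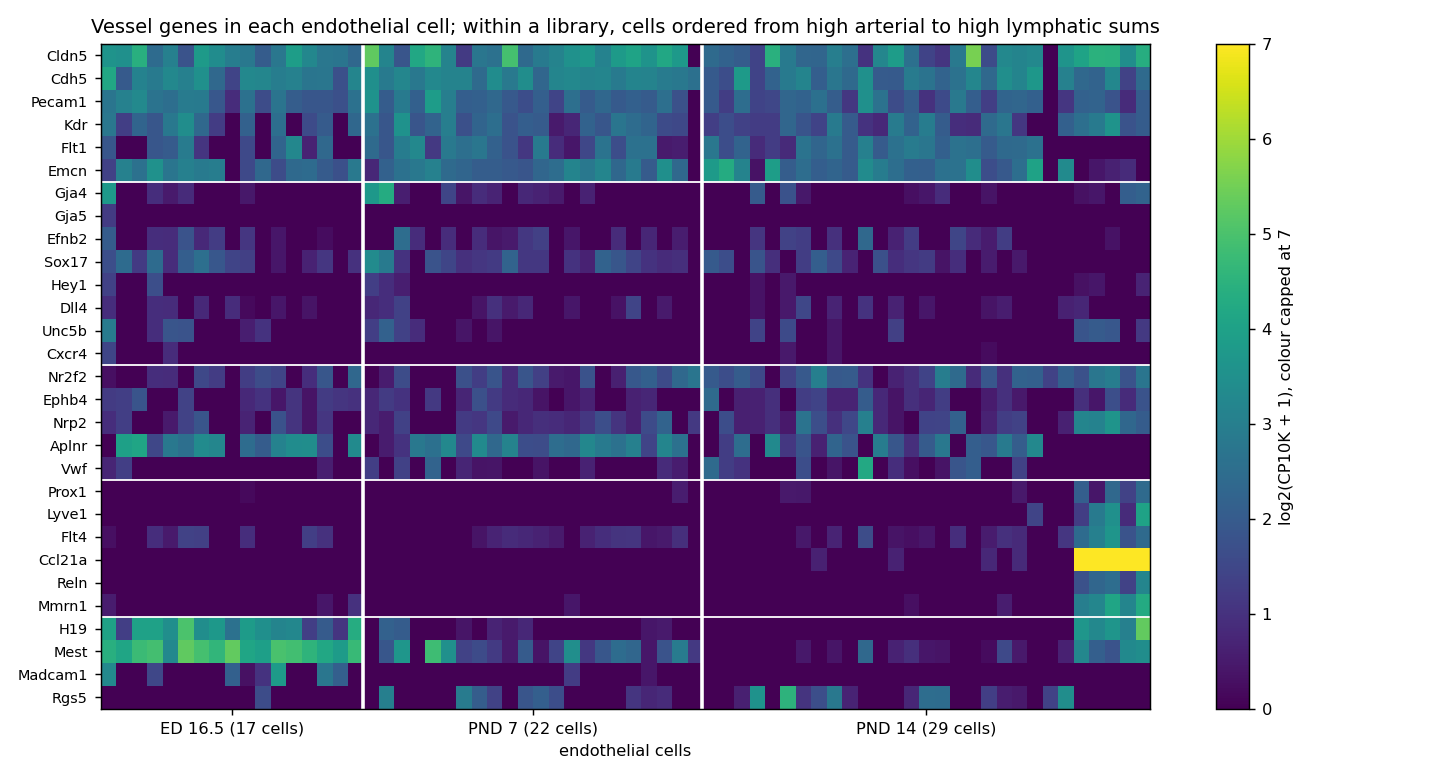
Heat map of log2(CP10K + 1) for 29 genes in each of 68 endothelial cells (columns), grouped by library and ordered from high arterial to high lymphatic sums; rows run from general endothelial through arterial, venous and lymphatic genes to age-related genes. A single embryonic and 2 PND 7 cells are bright for Gja4, and 5 PND 14 cells at the right edge are bright for Ccl21a, Mmrn1, Lyve1 and H19.

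Cells rich in lymphatic genes stood apart at day 14 and were not among the earlier endothelial cells. The 10 lymphatic genes summed to 157 to 624 CP10K in 5 of 29 cells at day 14 (17.2%, 5.85 to 35.8), and to at most 2.07 CP10K in the other 24. At the earlier ages the highest cell was at 2.43 and 1.88 CP10K; 0 of 17 and 0 of 22 cells allow shares of up to 17.6% and 13.6%. Both limits lie within the day 14 interval. The cells were split on these genes, at 50 CP10K, after their values were seen, so their lymphatic levels describe the split and carry no test. Each of the 5 held 325 to 977 UMIs of Ccl21a, a chemokine of lymphatic vessels that draws in dendritic cells. Each also held 1 to 38 UMIs of the hyaluronan receptor gene Lyve1, 10 to 59 of Mmrn1 and 2 to 17 of Reln, both secreted proteins of lymphatic vessels. Prox1, the transcription factor that sets lymphatic identity, had 1 to 15 UMIs in each, and Flt4, the receptor of VEGF-C, 3 to 42. Prox1 (chr1:190118035-190170714) overlaps antisense genes, and Ccl21a (chr4:42772860-42773993) has near-identical copies, so both levels are uncertain. Outside these cells Ccl21a had 10 UMIs in 4 of the other 24 endothelial cells, a share below its 24.2% in other non-erythroid cells of that library (median 11149 UMIs). Thinned to 5000 UMIs the share in those other cells was 10.3%.

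Of the 12 genes furthest above the other day 14 cells, those that the split did not use included H19, Ptx3, Thy1, Maf and Gmfg. Over 7740 genes tested, 699 were 2-fold higher there (9.03%) and 1081 lower (14%), in 137854 UMIs against 551831. H19 was at 1386 CPM (1196 to 1597) against 0, or 255-fold above the limit of 3 UMIs (at least 205-fold by the exact interval). Its UMIs per cell were 9, 26, 42, 51 and 63. Its level there was of the same order as in the embryonic endothelial cells (1015 CPM). Mest was at 595 CPM in all 5 cells against 38.1 CPM in the other 24. Igf2 had 0 UMIs in both groups, and Cdkn1c was at 21.8 and 65.2 CPM, so not all imprinted genes followed H19. The pentraxin Ptx3 had 84 UMIs (609 CPM) in the 5 cells and 0 in the others. The surface protein gene Thy1 was at 783 CPM against 12.7. The transcription factor Maf was at 631 CPM against 25.4. The water channel Aqp1 was at 1175 CPM against 39.9, in 4 of the 5 cells.

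Among the genes lower in the lymphatic-rich cells were several of blood vessels. Ly6c1 had 0 UMIs there against 587 CPM in the other 24, at least 27.0-fold lower, and Flt1 0 against 375 CPM, at least 17.2-fold lower. Aplnr, Nrp1 and Slco2a1 also had 0 UMIs against 288, 219 and 246 CPM. Sialomucin Cd34 stood at 14.5 against 632 CPM, and Emcn at 29.0 against 506 CPM. The genes of the rule diverged as well: Esam was at 14.5 against 419 CPM and Cd93 at 7.25 against 522 CPM, while Cldn5 was at 1814 against 651 CPM. Kdr (638 against 333 CPM), Pecam1 (297 against 281 CPM) and Cdh5 (501 against 545 CPM) were present in both. Stroma and dissociation-related genes were low too: 9 of 9 and 15 of 16 tested were 2-fold lower in the lymphatic-rich cells, against 14% of all genes tested. The 8 day 14 cells with 15 CP10K or more of stroma genes were all among the other 24, and the lymphatic-rich cells held at most 1.33 CP10K. The part of those 8 cells in the stroma count was not tested.

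**Figure D4:**
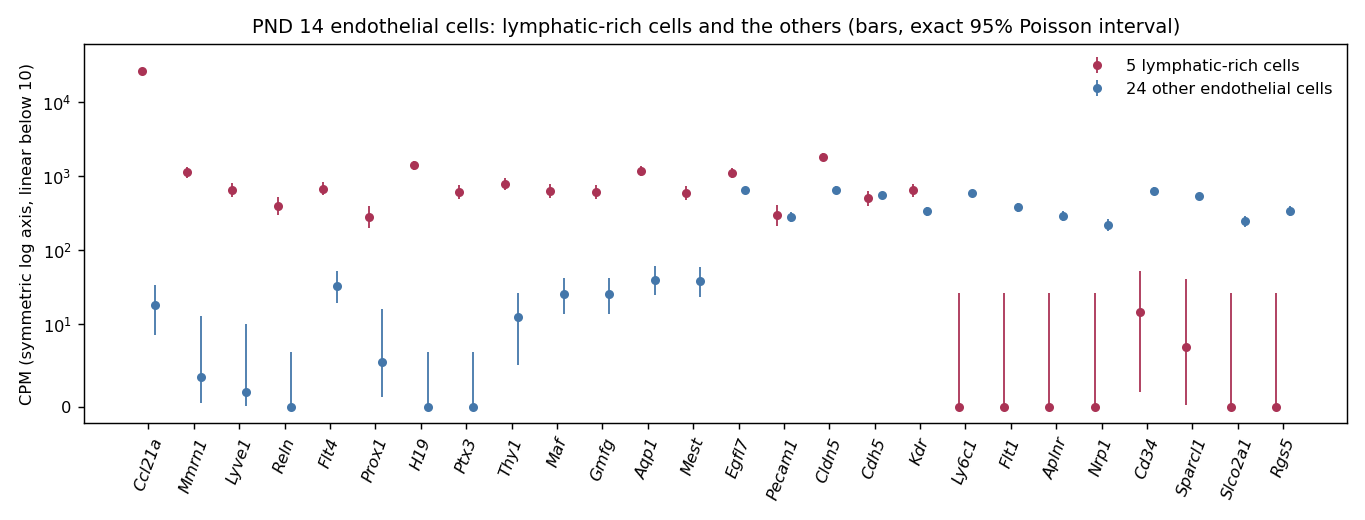
Summed level (CPM, symmetric log axis, exact 95% Poisson intervals) of 26 genes in the 5 lymphatic-rich and the 24 other endothelial cells of PND 14. H19, Ptx3 and Reln are at 0 outside the lymphatic-rich cells, and Ly6c1, Flt1, Aplnr, Nrp1, Slco2a1 and Rgs5 are at 0 inside them.

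Genes of cell division were read over the summed counts and, for Top2a, in thinned cells. Of 18 S phase genes, 4 were 2-fold lower at day 7 and 0 higher (median log2 ratio -0.76), and at day 14 against the embryonic day 5 were lower (median -0.73), or 8 of 18 without the lymphatic-rich cells. Of 20 genes of G2 and M phase, 0 were 2-fold apart at day 7 (median -0.44), and 2 were higher from day 7 to day 14. The mitotic topoisomerase gene Top2a had a UMI in 4 of 17 thinned endothelial cells (23.5%, 6.81 to 49.9), 7 of 22 (31.8%, 13.9 to 54.9) and 6 of 29 (20.7%, 7.99 to 39.7). Among other non-erythroid cells the thinned shares were 37.3%, 28.9% and 15.4%, so the endothelial intervals include them at each age. Unthinned, 8, 12 and 13 endothelial cells held Top2a (47.1%, 54.5% and 44.8%), against 55.7%, 39.5% and 21.7% of the others, which were shallower after birth.

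Genes known from pericytes and stroma, cells that neighbour vessels, differed with age in the endothelial cells. Whether their RNA came from such neighbours was not tested. The pericyte gene Rgs5 was at 4.96, 163 and 268 CPM, against 2.57, 4.99 and 15.5 CPM in the other cells, and 67.5% and 58.7% of its UMIs in the postnatal libraries lay in endothelial cells. A sum of 6 pericyte genes reached 3 CP10K in 2 of 17, 7 of 22 and 9 of 29 cells. These were the deeper cells: medians of 31503 against 19361 UMIs at day 7 and 31493 against 16326.5 at day 14. Leaving them out kept all 12 named higher genes of each age comparison 2-fold higher, with Rgs5 among those of both comparisons with the embryonic day. The Rgs5 level itself was then 0, 19.8 and 32.1 CPM, so most of it was in the cells left out. Rgs5 is itself counted in the pericyte sum that chose those cells, so its fall follows in part from the cut. Of 9 stroma genes, all 7 tested at day 7 and all 9 at day 14 were 2-fold above the embryonic endothelial level. Among these are Dcn (4.96, 99.6 and 112 CPM) and Mgp (17.4, 211 and 293 CPM), which stood at 1181 and 575 CPM at day 7 in the other cells. Stroma genes summed to a median of 0.343, 3.88 and 2.61 CP10K per endothelial cell, with 5.57, 65.0 and 52.8 as the highest cells. Leaving out cells at 15 CP10K or more of stroma genes kept all 12 named higher genes of day 7 against the embryonic day 2-fold higher. At day 14 against the embryonic day it kept 11 of 12, all but Ogn. The part of stroma RNA in the postnatal levels of Mgp, Dcn, Eln and Akr1cl was not tested. A list of 9 immune genes summed to 22.3, 24.9 and 18.8 CPM, against 208, 651 and 245 CPM in the other cells, with 4, 5 and 5 of its genes at 0. The defining markers Ptprc and Csf1r had 0 UMIs at all ages. No doublet caller was run: another class list exceeded the wider endothelial list in 0, 1 and 3 cells.

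**Figure D5:**
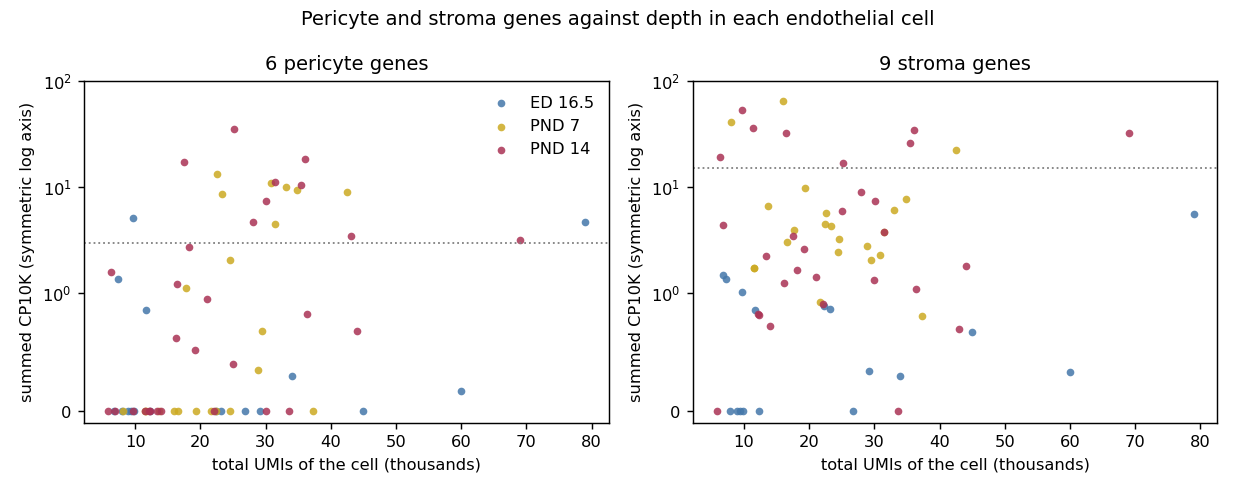
Summed CP10K of 6 pericyte genes (left) and 9 stroma genes (right) against total UMIs in each endothelial cell, coloured by library; dotted lines, 3 and 15 CP10K. The postnatal cells above 3 CP10K of pericyte genes have median depths of 31503 and 31493 UMIs, against 19361 and 16326.5 below it.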

How the data were processed

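Single-cell RNA was measured in 3 mouse ovary libraries, 1 for each age. The deposited values are UMI counts per gene and cell, not normalized, made with Cell Ranger 2.1.1 on genome build GRCm38, per the submitters' processing notes; the cell filter behind the deposited barcodes is not given in the sources used here. Identifiers sharing a symbol were summed, and 53274 of 53465 identifiers matched GENCODE M21 without their version.

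Endothelial cells were chosen per cell in CP10K by the rule stated in the report, and their UMIs were summed per library and divided by the library sum of those cells (CPM). Ages were compared as ratios of CPM + 10 for genes with 10 or more UMIs over both libraries, with 2-fold as the limit. Levels have exact Poisson intervals, ratios exact conditional binomial ones and shares exact Clopper-Pearson ones, all at 95% and for counting error only. A ratio against 0 used 3 UMIs per library and left out the counting error of the other level. Cells were thinned to 5000 UMIs (seed 1). With 1 library per age no test was run and no doublet caller was used. Named genes were the 12 with the largest ratio per direction among those with 30 or more UMIs at the higher age, in at least 5 cells, with non-overlapping intervals and at most 50% of UMIs from 1 cell. For endothelial against other cells they were the 20 with the largest lowest ratio, and named list members were added to both. Genes taken from the lists for the text, and Hspa1a beside the dissociation list, were chosen with their values known. The cells, lists and rules were chosen with earlier results of these data known. Mitochondrial, ribosomal protein and globin genes were not named. The call rule and the Poisson interval were tested on simulated Poisson counts, which do not model UMIs held by few cells. Alternatives covered the pseudocount, filters, scaling, marker sums, thinning and cells left out. Python 3.11.15, numpy 2.4.6, scipy 1.17.1, pandas 2.3.3 and matplotlib 3.10.9 were used. Some results are not reported here.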

Additional observations from a re-analysis of the deposited data

Results flagged for a closer look

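In 2 of the named genes the endothelial cells and the other cells of the ovary were 2-fold or more apart in opposite directions between the same ages, each with 1 library per age, so the difference was not tested. Plagl1, an imprinted zinc finger gene, had a log2 ratio of CPM + 10 of -2.34 from embryonic day 16.5 to day 7 in endothelial cells and of 1.44 in the other cells. H19 had 2.41 from day 7 to day 14 in endothelial cells and -1.55 in the others, and the endothelial value rests on the 5 lymphatic-rich cells. The other cells were not the same mix at each age. At embryonic day 16.5, 139 of 439 were erythroid and 117 held 15 CP10K or more of stroma genes, against 13 and 354 of 487 at day 7. The part of this mix in the ratios of the other cells was not tested.

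A signal of the lymphatic list also appeared in cells that the rule left out. A day 14 cell excluded for 24.3 CP10K of Inha and Amh held 166 CP10K of the list, with 10.6 CP10K of the 5 markers, 821 Ccl21a UMIs and 41 H19 UMIs in 57638 UMIs. Another, with 4.44 CP10K of the markers, held 50.4 CP10K of the list, 294 Ccl21a UMIs and 53 H19 UMIs in 76636 UMIs. Whether these are mixtures of cells was not tested.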

How the results depend on the processing

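With a pseudocount of 1 CPM the higher and lower counts were 912 and 461 (day 7 against embryonic day 16.5), 768 and 380 (day 14 against day 7) and 1382 and 443 (day 14 against embryonic day 16.5). With 50 CPM they were 71 and 24, 34 and 3, and 103 and 26, and with a filter at 30 UMIs 194 and 65, 107 and 32, and 329 and 84. Totals without mitochondrial, ribosomal protein and globin genes gave 281, 137 and 271 lower genes in that order. Means over cells gave 139 lower genes for day 14 against day 7 and 271 for day 14 against embryonic day 16.5. Chosen after seeing the data, leaving out pericyte-rich cells gave 249, 189 and 284 lower genes, and leaving out stroma-rich cells 147 for day 14 against day 7. Against other cells, a pseudocount of 1 CPM gave 1890, 1592 and 1764 higher genes.

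Without thinning, Sox17 and Nr2f2 were together in 58.8%, 68.2% and 48.3% of cells by age, and at 2000 UMIs in 0% at day 7 and 6.90% at day 14. Efnb2 and Ephb4 were together in 36.4% (day 7) and 31.0% (day 14) of unthinned cells, and at 2000 UMIs in 0% at embryonic day 16.5, 0% at day 7 and 6.90% at day 14, against 3.45% at 5000. Thinning only removes UMIs, so the unthinned shares cannot be lower than the thinned ones. Each thinned share rests on 1 random draw. The median log2 ratio of surface epithelium genes from day 7 to day 14 was 1.25. It was -0.98 at a marker sum of 10 CP10K, -0.19 at 3 CP10K, -0.998 with 2 of 5 markers, -0.97 without cells richer in another class and -0.96 without stroma-rich cells. Without the lymphatic-rich cells H19 had a log2 ratio of -2.43 from day 7 to day 14, and Mmrn1 -0.72 from embryonic day 16.5 to day 14. The cell counts stayed within 1.5 times under all rules tried, and 5 or 6 cells were lymphatic-rich under each cut. No paired analysis was possible because each age is 1 library and the labels share only the replicate number 1. Depth limits the text most for absent genes, with 3 UMIs equal to 7.44, 5.75 and 4.35 CPM.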

Other observations

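Further genes were carried by few cells. Stab2, the hyaluronan scavenger receptor of sinusoids and lymph vessels, was at 99.2, 0 and 14.5 CPM, and 77.5% of its 40 embryonic UMIs lay in 1 cell. That cell also held 34 Madcam1 UMIs. The stress-responsive gene Phlda1 was at 39.7, 295 and 171 CPM, against 36.9, 143 and 64.3 CPM in the other cells. The cathepsin gene Ctsh was at 7.44, 107 and 94.2 CPM and the chromatin gene Hmgn3 at 17.4, 174 and 164 CPM, both above the other cells at day 7 (30.9 and 86.3 CPM).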
